A study of Mus musculus with 2 samples.

Results

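The 7 enzymes of the pentose phosphate pathway (G6pdx, Pgls, Pgd, Rpia, Rpe, Tkt and Taldo1) were followed by gene symbol, out of the 32285 genes counted in single bone marrow cells. Their mRNA was compared between marker-defined cell classes and between a Trsp knockout and its control. Trsp encodes the transfer RNA that inserts selenocysteine, the amino acid that defines selenoproteins. Each genotype was represented by 1 library of Lineage-, cKit+ cells, a fraction of stem and progenitor cells, from femur and tibia marrow of C57BL/6 animals. The control carried the loxP-flanked alleles alone (Trsp f/f), and the knockout carried them with an interferon-inducible Cre (Trsp f/f:Mx1-Cre). Both genotypes were given 3 doses of 500 µg of pI-pC, an RNA mimic that induces interferon and so the Cre. The series record gives 7 weeks after birth for the injections, in wording from which the exact age is not clear, and collection followed 9 weeks after the last dose. Mx1-Cre is active in blood-forming cells and in other interferon-responding cells, and cells that escaped deletion could not be told apart here. The sources used here do not give how many mice entered a library. With 1 library per genotype no test between genotypes could be made, and every interval below covers counting error only.

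The pentose phosphate pathway branches from glycolysis at glucose-6-phosphate. Its oxidative branch reduces NADP to NADPH, which supplies glutathione and thioredoxin reductases and biosynthesis, and its non-oxidative branch interconverts sugar phosphates and supplies ribose phosphate for nucleotides. Red cells depend on the oxidative branch for NADPH, and phagocytes draw on it for the oxidative burst. The genes for G6pdx, Pgd, Tkt and Taldo1 are known targets of NRF2, a transcription factor of the oxidative stress response that binds the antioxidant response element.

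The genes G6pdx, Pgd and Taldo1 stood apart in the knockout's early erythroid-like cells, and their upstream sequences are shown first for that reason, with the antioxidant response element core (TGACNNNGC, either strand) in capitals where it occurs. Each run is 250 bases ending just before the annotated start, 5′ to 3′ on the gene's own strand, from RefSeq on build GRCm38.p6. They lie at chrX:74428881-74429130 (minus strand) for G6pdx, chr4:149166706-149166955 (minus strand) for Pgd and chr7:141391910-141392159 (plus strand) for Taldo1. The RefSeq starts used here differ from the gene starts of the GENCODE M21 annotation given further below. By that annotation the whole G6pdx run and part of the Pgd run lie inside the gene, and the Taldo1 run lies before it.
G6pdx: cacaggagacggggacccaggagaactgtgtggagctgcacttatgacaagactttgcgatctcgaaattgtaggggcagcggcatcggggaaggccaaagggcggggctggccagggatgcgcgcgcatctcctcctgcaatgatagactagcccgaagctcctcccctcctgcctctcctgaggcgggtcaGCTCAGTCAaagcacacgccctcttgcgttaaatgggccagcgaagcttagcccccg
Pgd: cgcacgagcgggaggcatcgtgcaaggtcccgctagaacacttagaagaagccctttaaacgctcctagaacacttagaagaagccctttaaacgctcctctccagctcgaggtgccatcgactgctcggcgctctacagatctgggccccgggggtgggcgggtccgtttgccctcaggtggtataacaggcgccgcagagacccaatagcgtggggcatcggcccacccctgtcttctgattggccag
Taldo1: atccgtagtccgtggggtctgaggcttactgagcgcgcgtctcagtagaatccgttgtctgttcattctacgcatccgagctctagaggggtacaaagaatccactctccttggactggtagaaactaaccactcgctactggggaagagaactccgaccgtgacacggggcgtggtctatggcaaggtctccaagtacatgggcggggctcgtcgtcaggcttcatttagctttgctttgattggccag
The G6pdx run held 1 match, on the antisense strand, whose first base lay at position -57 from the start. No match lay in the windows of 300 bases (250 before the start and 50 after it) of Pgls, Rpia, Rpe, Tkt or Taldo1. Pgd had a second annotated start, with 1 match, TGACATTGC, whose first base was at position 4 after that start. Among 32851 promoter windows of this length 12.4% held the core. The GATA motif AGATAA, searched on both strands because GATA factors act in erythroid cells, was in no member's window and in 11.2% of all windows; the motifs do not overlap. A match is a run of letters and not evidence of binding.

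After filtering, 8046 control and 6640 knockout cells were kept, with medians of 20352 and 20744 unique molecular identifiers (UMIs, each 1 captured mRNA molecule) per cell. The knockout held more shallow cells: 17.0% of its kept cells had under 5000 UMIs against 3.44% in the control, although these gave only 1.63% and 0.348% of the UMIs. The libraries shared 39 cell barcodes, 10 of them among kept cells. As a check of the labels, 8 of 14 selenoprotein mRNAs lay 1.5-fold or more below the control in the knockout and none above it, with a median log2 ratio of -0.71. Of all genes measured over the kept cells 0.607% lay that far below the control and 1.02% that far above it. Xist had 15 and 16 UMIs in the control and knockout, and Ddx3y had 45.5 and 61.6 counts scaled to CPM (counts per 1000000), so the X-linked G6pdx was not compared across sexes. Cells were placed in classes by summed marker UMIs, and 8 classes had at least 100 cells in each library. No gate took 1678 control and 1722 knockout cells (20.9% and 25.9% of kept cells), which enter only the values over all kept cells. In the Leiden clustering used as an alternative to the gates, a shallow unnamed cluster (median 1772.5 UMIs) held 162 control and 1292 knockout cells. In the control each class held the highest sum of its own marker list among the 8, with exceptions in the neutrophil progenitor list (47712 CPM in maturing neutrophil-like against 33064 in the neutrophil progenitor-like class) and the monocyte progenitor list (4330 CPM in dendritic cell-like against 3784 in monocyte progenitor-like cells).

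The genes lie at X:74409483-74429194 (G6pdx), 8:71592176-71601092 (Pgls), 4:149149991-149166771 (Pgd), 6:70765720-70792232 (Rpia), 1:66700831-66719805 (Rpe), 14:30548359-30574720 (Tkt) and 7:141392199-141402968 (Taldo1) in the GENCODE M21 annotation of GRCm38. The sources used here do not say whether the authors counted by strand. G6pdx overlaps Ikbkg and Rpe overlaps Kansl1l on the opposite strand, and Pgls overlaps Fam129c on its own strand. G6pd2, a near-identical copy of G6pdx without introns, had 20 control and 6 knockout UMIs over all kept cells, against 5993 and 7348 for G6pdx. Over the same cells Ikbkg was at 11.4 and 14.2 CPM and Kansl1l at 21.5 and 26.9 CPM.

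In the control library the enzymes were not spread evenly over blood lineages. For 5 of the 7 the highest level was in maturing neutrophil-like cells, and stem-like, multipotent or dendritic cell-like cells had the lowest level of each of the 7. G6pdx, glucose-6-phosphate dehydrogenase and the entry point of the oxidative branch, was lowest in hematopoietic stem cell-like (HSC-like) cells at 20.2 CPM, with multipotent or lymphoid-primed progenitor-like cells next at 21.1 CPM; these did not differ beyond counting error. It was 29.2 CPM in maturing neutrophil-like, 30.1 in neutrophil progenitor-like, 30.8 for basophil or mast-like, 35.8 in early erythroid-like and 41.7 in dendritic cell-like cells, a run in which no neighbour differed from the next. Monocyte progenitor-like cells had 59.0 CPM, above the next class beyond counting error.

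Pgls, the lactonase of the second step, was lowest in HSC-like cells at 191.7 CPM and highest in neutrophil progenitor-like (541.5) and maturing neutrophil-like cells (545.1), the last pair not differing beyond counting error. Pgd, 6-phosphogluconate dehydrogenase, which makes the branch's other NADPH, spanned 5.10-fold. It was low in dendritic cell-like (48.2), multipotent or lymphoid-primed (56.7) and HSC-like cells (57.0) and stood at 76.3 CPM in early erythroid-like cells and 81.0 among basophil or mast-like ones. It then stepped up, each step beyond counting error, through monocyte progenitor-like (149.4) and neutrophil progenitor-like (189.3) to maturing neutrophil-like cells (245.6).

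In the non-oxidative branch, Rpia, the isomerase that makes ribose-5-phosphate, ran from 34.3 CPM in dendritic cell-like to 142.8 in early erythroid-like and 154.4 in maturing neutrophil-like cells, of which the last 2 did not differ beyond counting error. Rpe, the epimerase that makes xylulose-5-phosphate, ran from 24.8 CPM in dendritic cell-like to 49.4 in maturing neutrophil-like cells. Tkt, transketolase, ran from 368.6 CPM in dendritic cell-like to 719.9 in maturing neutrophil-like cells. Taldo1, transaldolase, had another order: 194.8 CPM in multipotent or lymphoid-primed and 200.1 in HSC-like cells, 340.4 in monocyte progenitor-like, 414.1 in early erythroid-like, and the highest level, 600.6 CPM, in dendritic cell-like cells.

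**Figure D1:**
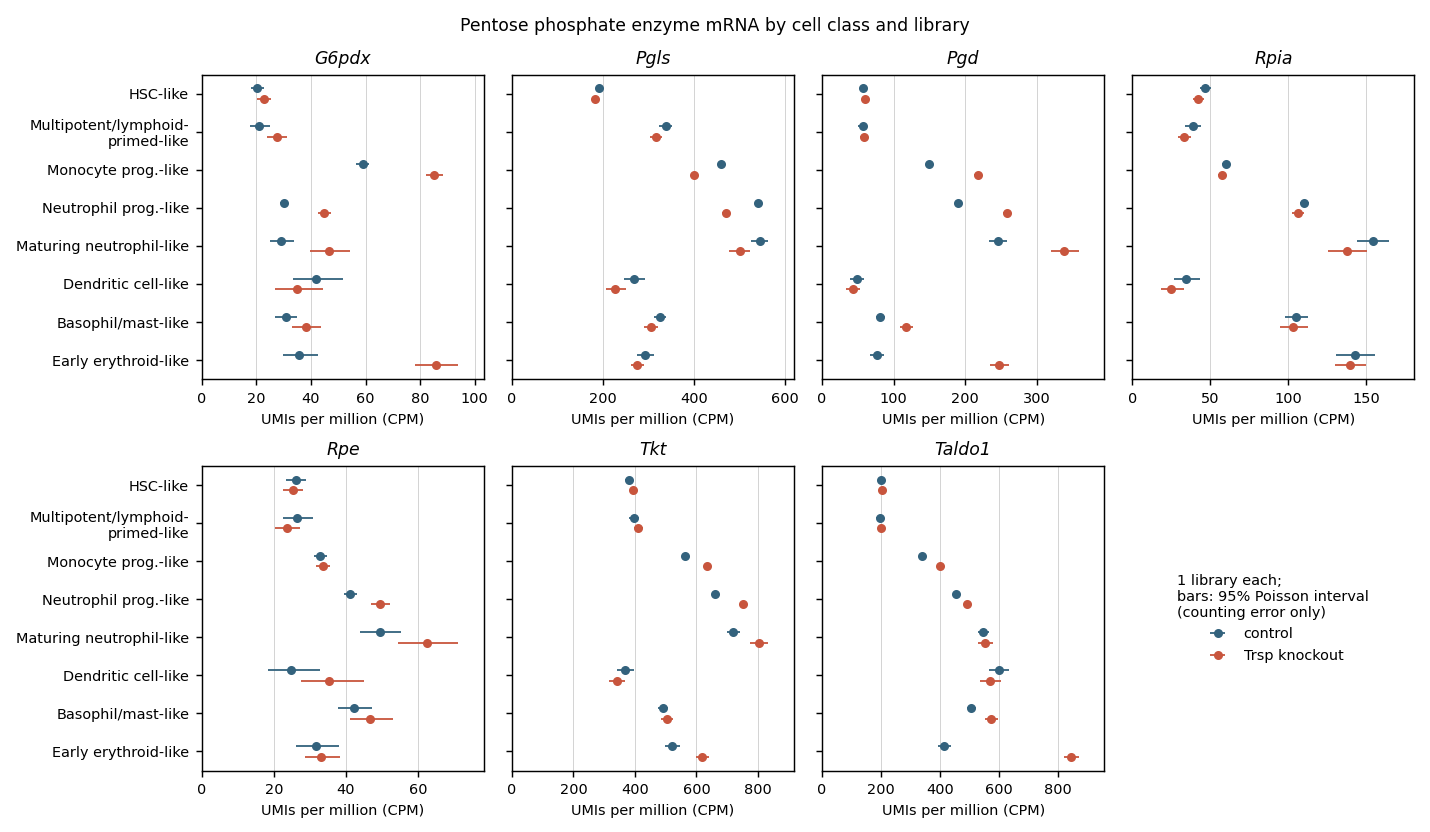
Level of each enzyme (x axis, CPM of the class's summed UMIs, each panel on its own linear scale from 0) in 8 cell classes, 1 point per library, with exact 95% Poisson intervals that cover counting error only. In early erythroid-like cells the knockout points of G6pdx, Pgd and Taldo1 (85.8, 247.7 and 845.1 CPM) lie far to the right of the control points (35.8, 76.3 and 414.1 CPM), while in HSC-like cells the points of both libraries nearly coincide.

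Over all kept cells together no enzyme differed by 1.5-fold or more between the libraries. A gene was called higher or lower at that fold, and measured from 20 CPM in either library with 50 or more UMIs in all; all 7 enzymes were measured in every class. Of the 6096 genes measured over all kept cells, 1.02% were called higher and 0.607% lower in the knockout. G6pdx came nearest, at 36.0 CPM in the control and 53.1 in the knockout, a log2 ratio of 0.56 (95% interval 0.51 to 0.61). Pgd was at 132.2 and 175.2 CPM, a log2 ratio of 0.41 (0.38 to 0.43). Taldo1 was at 0.14, Tkt at 0.09 and Rpe at 0.08 on this scale, close to the median of 0.08 over all measured genes, whereas Pgls (-0.20) and Rpia (-0.16) lay below it. Class shares differed between the libraries, with neutrophil progenitor-like cells at 25.4% of control and 15.7% of knockout cells. With knockout classes weighted by control class shares, Rpia was at -0.07, outside its counting interval (-0.20 to -0.13), and Pgls at -0.16. Pgd was then at 0.50, Taldo1 at 0.19, Rpe at 0.16 and Tkt at 0.15. G6pdx stayed between 0.47 and 0.56 under the alternative settings.

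The early erythroid-like cells, 122 in the control and 151 in the knockout, showed the widest differences. G6pdx had 128 control and 471 knockout UMIs, or 35.8 and 85.8 CPM, 2.40-fold higher in the knockout (log2 ratio 1.26, 0.98 to 1.56). Pgd had 273 and 1359 UMIs, or 76.3 and 247.7 CPM, 3.25-fold higher (1.70, 1.51 to 1.89). Taldo1 had 1482 and 4637 UMIs, or 414.1 and 845.1 CPM, 2.04-fold higher (1.03, 0.94 to 1.11). So 3 of the 7 enzymes were called higher and 0 lower, where 4.25% of 5881 measured genes were called higher and 3.66% lower. Of all measured genes in these cells, 0.374% had a ratio at or above that of Pgd, 0.799% at or above that of G6pdx and 1.21% at or above that of Taldo1.

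The other enzymes of both branches did not share this size of difference. Tkt was at 521.9 and 619.3 CPM (0.25, 0.16 to 0.33). Pgls, which acts between G6pdx and Pgd, was at 293.7 and 275.7 CPM (-0.09, -0.21 to 0.02). The intervals of Rpia (142.8 and 140.0 CPM) and Rpe (31.6 and 33.2 CPM) also spanned 0. Thus 2 of 3 oxidative enzymes and 1 of 4 non-oxidative enzymes were called. In the knockout library early erythroid-like cells had the highest Taldo1 of the 8 classes, beyond counting error, and their G6pdx did not differ beyond counting error from that of monocyte progenitor-like cells (85.1 CPM).

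The erythroid cells of the libraries differed in other ways. Median depth was 28798 UMIs in the control and 39268 in the knockout. The summed erythroid markers were at 5111 and 5080 CPM, with 11 of 11 detected in both, but within the list Hba-a1 was at 1023 and 370.3 CPM and Hbb-bt at 705.5 and 1617. Neutrophil progenitor markers, 8 of 8 detected in both, summed to 1738 CPM in the control's and 337.2 in the knockout's erythroid cells, and monocyte progenitor markers to 159.3 and 44.7 CPM. The part of these differences in the enzyme ratios was not tested. Among control neutrophil progenitor-like cells the level of Pgd (189.3 CPM) and of Taldo1 (455.5 CPM) was above that in control erythroid cells, and that of G6pdx (30.1 CPM) was not.

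Splitting the erythroid cells at the median summed erythroid marker level of both libraries, a split chosen after the data were seen, left G6pdx, Pgd and Taldo1 past 1.5-fold in both groups. The sum was made up differently in the libraries, with Hba-a1 at 1023 CPM in the control and 370.3 in the knockout and Hbb-bt at 705.5 and 1617. A like sum is therefore not a like stage of maturation, and the split does not match the libraries for maturity. Below the median (62 control and 74 knockout cells) the log2 ratios were 0.91 for G6pdx (0.40 to 1.45), 0.98 for Pgd (0.66 to 1.32) and 0.89 for Taldo1 (0.73 to 1.04). At or above it (60 and 77 cells) they were 1.39 (1.04 to 1.75), 1.98 (1.74 to 2.23) and 1.06 (0.96 to 1.16). The Pgd intervals of the groups did not overlap: its knockout level was 164.9 CPM below and 285.2 above the median, against 83.4 and 72.2 in the control. Rpe, with 30 and 60 UMIs below the median, was also past 1.5-fold there (0.60, -0.06 to 1.28), with an interval spanning 0.

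**Figure D2:**
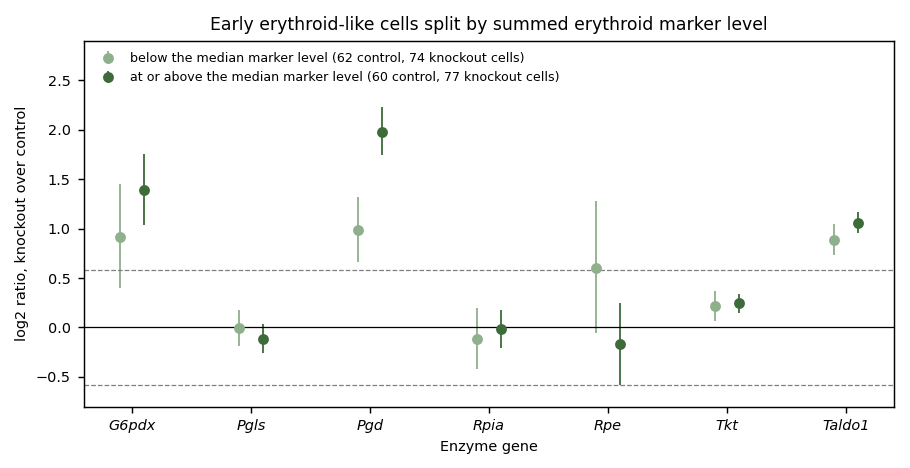
Log2 ratio, knockout over control, of each enzyme in early erythroid-like cells below (light) and at or above (dark) the median summed erythroid marker level, with exact 95% intervals for counting error. Dashed lines mark 1.5-fold. Both points of G6pdx, Pgd and Taldo1 lie above the upper dashed line, and Pgd differs between them (0.98 and 1.98).

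HSC-like cells, 946 in the control and 821 in the knockout, showed no such difference. No enzyme was called, where 0.635% of measured genes were called higher and 0.589% lower, and the intervals of all 7 spanned 0. G6pdx was at 20.2 and 22.8 CPM (0.17, -0.07 to 0.41), Pgd at 57.0 and 59.6 (0.07, -0.08 to 0.21), Tkt at 379.3 and 394.2 (0.06, -0.0011 to 0.11) and Taldo1 at 200.1 and 204.4 (0.03, -0.05 to 0.11). The whole Pgd interval in HSC-like cells lies below the whole interval in erythroid cells, which is a statement about counting error and not about mice. The multipotent or lymphoid-primed class had 0 enzymes called (of all measured genes, 1.41% higher and 0.867% lower), G6pdx was at 21.1 and 27.4 CPM (0.38, 0.06 to 0.70), and Pgls (-0.09) was the one other member whose interval left out 0.

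Myeloid progenitors lay in between, with G6pdx and Pgd under the fold used with the main settings. In monocyte progenitor-like cells G6pdx was at 59.0 and 85.1 CPM (0.53, 0.45 to 0.61) and Pgd at 149.4 and 217.4 (0.54, 0.49 to 0.59), with Taldo1 at 0.23, Tkt at 0.18 and Pgls at -0.20. No member was called there, where 1.28% of measured genes were called higher and 0.465% lower. Of these cells 26.3% had under 5000 UMIs in the knockout against 3.46% in the control. In neutrophil progenitor-like cells G6pdx was at 30.1 and 44.9 CPM (0.58, 0.47 to 0.69), Pgd at 189.3 and 258.5 (0.45, 0.41 to 0.49), Rpe at 0.27, Tkt at 0.18, Taldo1 at 0.11 and Pgls at -0.20, with 0 members called (of all measured genes, 1.49% higher and 0.514% lower). The median of all measured genes was itself at 0.10 in this class and 0.11 in maturing neutrophil-like cells, and relative to it G6pdx was at 0.48 and 0.57. Other settings moved the monocyte and neutrophil progenitor-like values both ways. A stricter gate put 1 member over 1.5-fold in each of these 2 classes, Pgd among monocyte progenitor-like (0.75) and G6pdx among neutrophil progenitor-like cells (0.73). With each cell weighted equally, monocyte progenitor-like G6pdx came down to 0.34 and Pgd to 0.45, both below their main intervals. Relative to the median of all measured genes, neutrophil progenitor-like Pgd was at 0.35.

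The maturing neutrophil-like class had 1 of 7 called higher, G6pdx, with 173 and 164 UMIs, or 29.2 and 46.5 CPM (0.67, 0.36 to 0.99), where 4.69% of measured genes were called higher and 0.879% lower. That call was lost relative to the median of all genes (0.57) and in Leiden clusters named by the same markers (0.42). Pgd was at 245.6 and 338.5 CPM (0.46, 0.35 to 0.57) and Rpe at 49.4 and 62.4 (0.34, 0.08 to 0.59). In basophil or mast-like cells Pgd was at 81.0 and 117.8 CPM (0.54, 0.38 to 0.71), G6pdx at 0.31 and Taldo1 at 0.18, with 0 called (of all measured genes, 1.65% higher and 0.731% lower). The values in this class moved with the setting: Pgd was past 1.5-fold when each cell weighed equally (0.82) and at 0.32 in Leiden clusters named by the same markers, and G6pdx was at 0.09 under equal weighting.

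Dendritic cell-like cells were the one class where the ratios of G6pdx, Pgd, Tkt and Taldo1 were below 0. G6pdx had 84 and 66 UMIs, or 41.7 and 34.8 CPM (-0.26, -0.75 to 0.22), and Pgd 97 and 81 UMIs, or 48.2 and 42.8 CPM (-0.17, -0.62 to 0.27). Only Pgls had an interval that left out 0 (-0.24, -0.43 to -0.06). No member was called, where 7.41% of measured genes were called higher and 3.45% lower, and at this depth the G6pdx interval still held a 1.5-fold lower level. With predicted doublets kept Pgd was at 0.05 there.

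**Figure D3:**
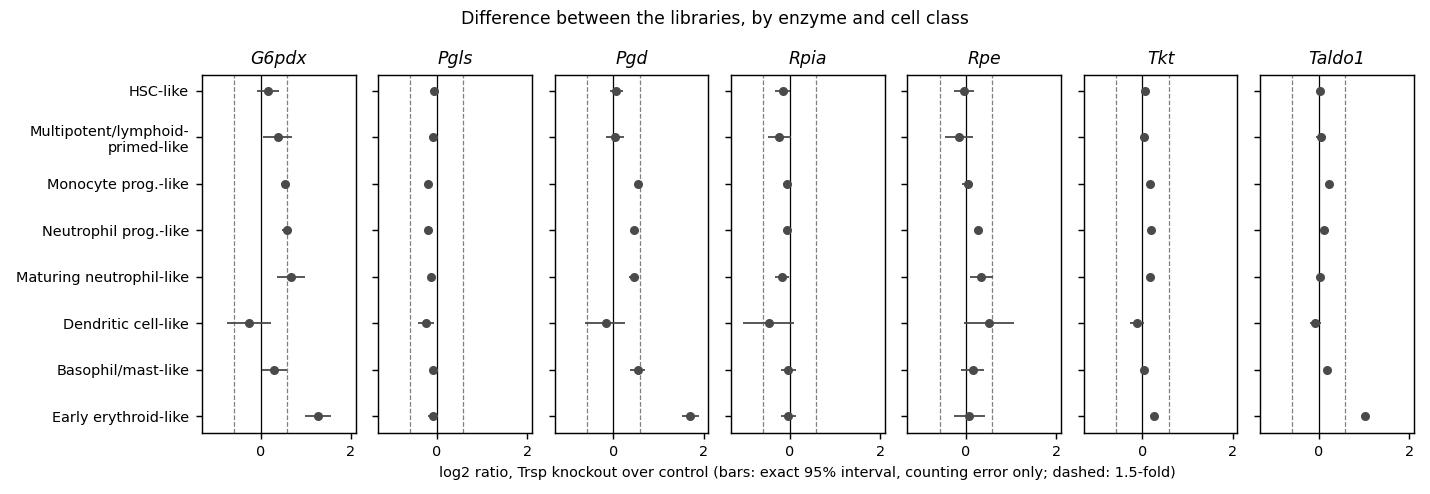
Log2 ratio, knockout over control, of each enzyme (panels) in 8 cell classes (rows), with exact 95% intervals for counting error and dashed lines at 1.5-fold. G6pdx, Pgd and Taldo1 reach 1.26, 1.70 and 1.03 in early erythroid-like cells, and all 8 points of Pgls and of Rpia lie to the left of 0.

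Read across classes, the members fell into different patterns. With the main settings G6pdx was above 0 in 7 of 8 classes with 6 intervals above 0, and Pgd in 7 of 8 with 5. Pgls was below 0 in 8 of 8 classes, with 5 intervals below 0, but its ratio stayed between -0.24 and -0.07. Rpia was also below 0 in 8 of 8, with 1 interval below 0. Tkt and Taldo1 were above 0 in 7 of 8, with 4 intervals each, and Rpe in 6 with 2. The 8 classes come from the same pair of libraries, so they are not separate observations of the genotype. Signs of values near 0 turned under other settings: Rpia was at 0.02 in monocyte progenitor-like cells when each cell weighed equally and at 0.03 in basophil or mast-like cells under the stricter barcode filter, and Pgd was at -0.10 in HSC-like and -0.11 in multipotent or lymphoid-primed cells under the stricter gate. The Pgls and G6pdx ratios kept their signs in each class under each alternative run, but G6pdx came down to 0.05 in multipotent or lymphoid-primed and 0.06 in HSC-like cells under the stricter gate. Pgd in maturing neutrophil-like cells came down from 0.46 to 0.19 in the Leiden clusters.

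Over the 16 class-by-library sums the levels of Pgd and Tkt followed each other most closely among the members, with a Pearson r of 0.97 on log2(CPM + 1), and G6pdx and Rpe least (0.27). Among 6095 other measured genes those most like Pgd were Tkt, Gsr (0.96), which encodes glutathione reductase, and Ptgr1 (0.96). For G6pdx they were the ferritin light chain gene Ftl1 (0.87), Api5 (0.86) and Ftl1-ps1 (0.85), a copy of Ftl1 whose reads may be shared with it. Those most like Tkt were Bola2 (0.98), Pgd and Aprt (0.96). For Taldo1 they were 1110008P14Rik (0.92), Derl1 (0.87) and Clint1 (0.86). For Pgls they were Ube2a, Ufc1 and Cox5a (0.91 to 0.92), for Rpia Ebna1bp2, Zcrb1 and Acsl1 (0.95), and for Rpe Atp6v1e1, Tmem248 and Sec22b (0.91 to 0.93). These 16 sums share 2 libraries and their depth, and the r values describe them only.

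Other genes of the surrounding metabolism were counted in the early erythroid-like cells from lists chosen with earlier results of these data known. Of all measured genes in these cells 4.25% were called higher and 3.66% lower. Among 13 measured NRF2 targets outside the pathway 12 were called higher and 0 lower, with a median log2 ratio of 1.45 against 0.05 over all measured genes. The highest were Slc7a11, the cystine transporter, with 1 and 303 UMIs (7.63, 5.14 to 12.94), and Pir (4.48, 3.48 to 5.71), and the lowest were Gstm1 (-0.24, -0.61 to 0.12) and Cbr1 (0.64, 0.36 to 0.91). Among 17 NADPH-using reductases and synthases 5 were called higher, led by Nqo1 (3.45, 3.07 to 3.87) and Gsr (1.93, 1.71 to 2.16), and 1 lower, Dhcr7 (-0.85, -1.32 to -0.39), followed by Txnrd2 (-0.52, -0.80 to -0.24). Nqo1 and Cbr1 stand on both lists.

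The counts of the further lists in these cells stand beside the same shares of all measured genes, 4.25% higher and 3.66% lower. Glycolysis had 2 of 13 called higher, Eno1 (2.18, 1.77 to 2.61), whose near-identical copy can divide its reads, and Aldoa (0.80, 0.68 to 0.92). Pkm (-0.56) and Pgam1 (-0.44) were lowest in that list, and its median was 0.46. Among other pentose phosphate and ribose genes 2 of 7 were called higher, Dera (0.66, 0.37 to 0.95) and Prps1, a ribose phosphate pyrophosphokinase (0.65, 0.43 to 0.89), with Prps1l3 (-0.18) and Rbks (-0.11) lowest. Of 8 other NADPH sources 1 was called, Mthfd2 (0.71, 0.41 to 1.02), with Nadk next (0.31) and Nadk2 (0.08) and Glud1 (0.13) lowest. Nucleotide synthesis had 2 of 16, Ctps (0.61) and Gart (0.60), with Tyms (0.01) and Impdh2 (0.06) lowest. Selenoproteins had 4 of 12 called lower, with Selenoh (-2.89) and Selenow (-2.61) lowest, and 2 higher, Txnrd1 (1.35) and Sephs2 (0.60). The medians of the 15 S phase genes (0.01) and of the 13 G2 and M phase genes (-0.20) were near or below that of all genes. Of the S phase genes 1 was called lower, Mcm7 (-0.63), with Cdc6 (-0.32) next and Uhrf1 (0.26) and Mcm6 (0.26) highest, and none of the G2 and M phase genes was called, from Cenpe (-0.44) and Ube2c (-0.44) to Cdk1 (0.06) and Cks2 (0.11).

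**Figure D4:**
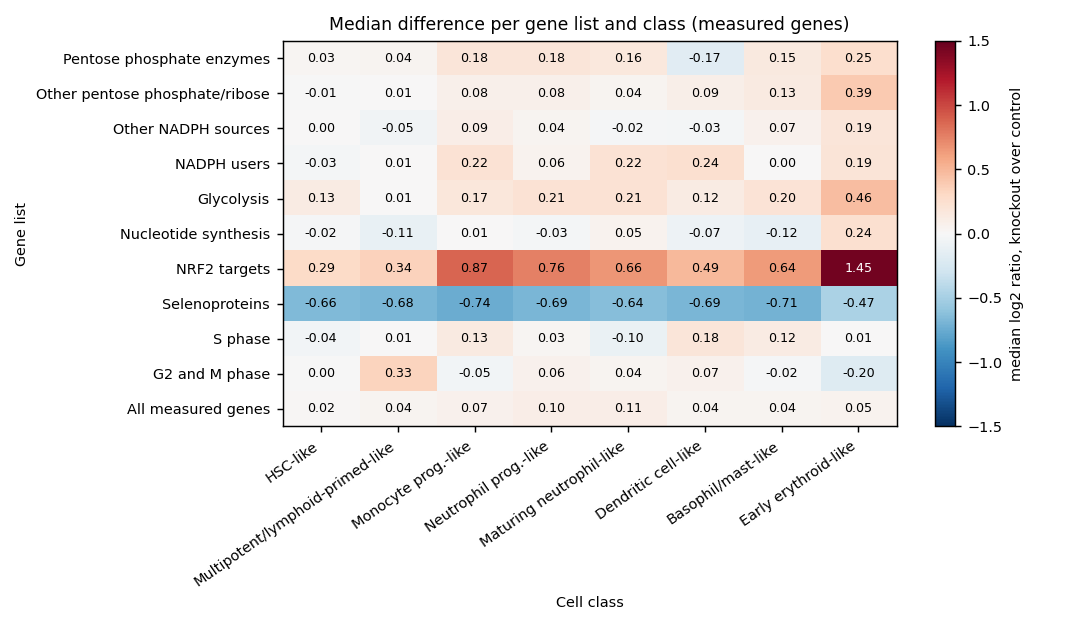
Median log2 ratio, knockout over control, of the measured genes of each list (rows) in each class (columns), with the median of all measured genes in the last row. The list of NRF2 targets has the highest median in each class but is widest apart in early erythroid-like cells (1.45), and the selenoproteins have the lowest in each (-0.74 to -0.47).

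In HSC-like cells 1 of 9 measured NRF2 targets was called higher (median 0.29; 7 of 18 with a floor of 10 UMIs in place of the main one), where 0.635% of all measured genes were called higher, or 5.21% with that floor. In monocyte progenitor-like cells 7 of 11 were called higher (0.87), against 1.28% of all measured genes, and in neutrophil progenitor-like cells 6 of 11 (0.76), against 1.49%. The pathway's own members had medians of 0.03, 0.18 and 0.18 in these 3 classes.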

How the data were processed

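Single-cell RNA from 2 libraries (1 control, 1 Trsp knockout) was measured after freezing and thawing of the sorted cells. Raw counts of UMIs for every gene and barcode were deposited, from 10x 3′ v3.1 libraries per the labels' protocols, made with Cell Ranger 6.1.2 and mm10 per the submitters' processing notes; the sources used here name neither annotation release nor strand setting. The files held 14372 control and 11556 knockout barcodes. Cells were kept from 500 genes up and below 10% mitochondrial UMIs. Scrublet (scanpy 1.11.5) scored doublets; the control's automatic threshold (0.433), used for both, removed 146 and 66 cells.

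Each cell was gated on summed marker UMIs per 10000 of its UMIs, with at least 2 markers detected. Gate thresholds were set after the marker data were seen, without reference to the enzymes. Per 10000 they were 8 for early erythroid-like, 15 for basophil or mast-like, 25 for dendritic cell-like and 30 for maturing neutrophil-like cells. Neutrophil progenitor-like cells had at least 200, and monocyte progenitor-like cells at least 15 with under 200 of neutrophil markers. HSC-like (at least 4) and multipotent or lymphoid-primed cells (at least 15, with under 4 of HSC markers) had under 40 of neutrophil and under 10 of monocyte markers. Within 10% of a gate lay 8 control and 3 knockout erythroid cells. UMIs were summed per class and library and scaled to CPM, with exact Poisson 95% intervals and exact conditional binomial intervals of ratios; no test between genotypes was made. Ratio intervals were tested on simulated data. All 7 enzymes are named, with the 3 genes most alike in pattern for each and the 2 highest and 2 lowest measured genes of each list in erythroid cells. Members and lists were chosen with earlier results of these data known. Alternatives changed the cell filters, doublets, gates, clustering, scaling, cell weighting, folds and floors. All 7 members matched the RefSeq promoter table. UMIs are not free of suspension RNA.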

Additional observations from a re-analysis of the deposited data

How the results depend on the processing

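The 3 enzymes called higher in early erythroid-like cells numbered 3 under each other setting run except equal weighting of cells, which gave 4 with Rpe (0.73, on 113 and 182 UMIs), and the cells below the median marker level, which also gave 4 with Rpe (0.60). These settings did not include the floor of 100 CPM, with which G6pdx (35.8 and 85.8 CPM) would not be measured in these cells. Over the 10 other settings of cells, gates and scaling, the cells below and above that median included, G6pdx ranged from 0.91 to 1.39, Pgd from 0.98 to 1.98 and Taldo1 from 0.89 to 1.08; each of these bounds except the upper one of Taldo1 came from that split. Counts of enzymes called higher in other classes moved as follows. At a lower threshold, a log2 ratio of 0.32, they were 2 over all kept cells (where 6.07% of measured genes were that much higher), 2 in monocyte (6.39%) and 2 in neutrophil progenitor-like cells (13.7%), 1 in multipotent or lymphoid-primed (7.87%) and 1 in basophil or mast-like cells (9.89%), 3 in the maturing neutrophil-like class (22.0%), and 1 higher (20.4%) with 1 lower (11.7%) in dendritic cell-like cells. At a 2-fold threshold, and with median-of-ratios scaling, the count in maturing neutrophil-like cells was 0. The stricter gate and the Leiden clusters each gave 1 in monocyte and 1 in neutrophil progenitor-like cells and 0 in the maturing neutrophil-like class. The stricter barcode filter gave 1 in dendritic cell-like cells, and equal weighting gave 1 in basophil or mast-like cells. The cause was not tested. The share of measured genes called higher in erythroid cells, 4.25%, was 7.77% with equal weighting and 9.12% with a floor of 10 UMIs, a floor that raised it to between 5.21% and 12.8% in the compared classes by admitting genes with few UMIs. With that floor 15 of 18 NRF2 targets were called higher in erythroid cells and 7 of 18 in HSC-like cells, and with a floor of 100 CPM 7 of 7 and 1 of 5. At the floor of 100 CPM 3.99% of all measured genes were called higher in erythroid cells and 0.703% in HSC-like cells. Rpe over all kept cells was at -0.0077 with median-of-ratios scaling. Under other settings 437 enzyme ratios stayed within their counting interval and 74 left it, and none that was called changed sign. No paired analysis was possible because each genotype has 1 library. Counting precision is limited most in dendritic cell-like cells (47 to 97 UMIs per library for 4 of the 7 enzymes).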

Other observations

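Values of the enzymes outside the compared classes and along cell division are given here. In classes under 100 cells in a library, G6pdx had 10 and 24 UMIs in megakaryocyte progenitor-like cells (51 control, 40 knockout; log2 ratio 1.53, 0.41 to 2.76), where Pgd had 53 and 36 (-0.29, -0.94 to 0.35). Among mature B or plasma-like cells (64 and 39) Tkt was at 105.0 and 191.4 CPM (0.87, 0.56 to 1.17) and Taldo1 at 92.4 and 145.3 CPM (0.65, 0.31 to 0.99). Relative to the median of all measured genes in that class Tkt was at 0.57 and Taldo1 at 0.36, both under 1.5-fold. Pgls was higher there (0.40, 0.10 to 0.69), or 0.10 relative to that median, and lower in megakaryocyte progenitor-like cells (-0.42, -0.75 to -0.10). In eosinophil-like cells (142 and 78) Pgd was at 122.8 and 154.7 CPM (0.33, 0.05 to 0.62). Common lymphoid progenitor-like cells (34 and 99) had 13 and 26 G6pdx UMIs, with an interval that spanned 0.

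Within each of the 16 class-by-library groups, cells were ranked by the summed level of 25 S, G2 and M phase genes and cut into 3 sets at quantiles of the class. G6pdx was higher in the top than in the bottom set in 14 of 16 groups, with 7 intervals above 0 and a median log2 ratio of 0.32. Tkt was higher in 12 of 16, with 9 intervals above 0 and 2 below (median 0.17), and Pgls in 13 of 16, with 10 above and 2 below (0.18). Rpia was higher in 12 of 16, with 5 intervals above 0 and 0 below (0.15), and Taldo1 in 9, with 3 above and 3 below (0.0033). Pgd was higher in 7 of 16, with 4 intervals above 0 and 3 below (-0.05). Those 4 were all in knockout groups and those 3 all in control groups. For example, neutrophil progenitor-like cells had 0.19 (0.11 to 0.28) in the knockout and -0.18 (-0.25 to -0.11) in the control. The cause of this split was not tested. Rpe was higher in 4 of 16, with 0 above and 5 below (-0.13).

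Me1, cytosolic malic enzyme and another source of NADPH, was under the expression floor, with 13 control and 177 knockout UMIs over all kept cells (log2 ratio 4.03, 3.22 to 4.97). In early erythroid-like cells it had 0 and 35 UMIs. H6pd, which carries out the first oxidative steps inside the endoplasmic reticulum, had 25 and 86 UMIs there (1.17, 0.51 to 1.87).

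Barcodes with under 500 genes, which were not analysed as cells, held 58.9 CPM of Pgd in the control and 61.3 in the knockout, 11.8 and 14.2 of G6pdx, and 109.6 and 99.9 of Taldo1. For Pgd this is about the level of HSC-like cells (57.0 and 59.6 CPM), and the part of free RNA in that level was not tested. In both libraries most of these barcodes also had 10% or more mitochondrial UMIs. Those UMIs enter the CPM total, so the levels are not measured alike.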
